A study of Mus musculus with 12 samples.

Results

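The genes described are the 6 that encode the E proteins and Id inhibitors measured in developing T cells: Tcf3, Tcf12 and Tcf4, which encode the E proteins E2A, HEB and E2-2, and Id1, Id2 and Id3. They were taken by symbol from a table of read counts for 43629 genes, and all 6 passed the filter on low counts that left 13944 genes for testing. RNA came from sorted thymic pre-T cells of C57BL/6 mice in 3 groups of 4 libraries. DN3 is a stage among the thymocytes without CD4 and CD8 that carry CD25. The first group, called DCKO, is the DN3 fraction of Zfp36l1fl/fl Zfp36l2fl/fl mice with a CD2cre transgene. In those mice Cre recombinase driven by CD2 sequences acts in lymphoid cells and deletes the genes of both RNA-binding proteins. The others are the DN3b and the DN3a cells of floxed mice without Cre, which are thymocytes after and before beta-selection, the checkpoint that a productive T cell receptor beta chain must pass. The DCKO label gives DN3 with no a or b, so a changed mix of DN3a and DN3b cells and a change within cells cannot be told apart in that group. As in any bulk sample, fewer cells of a type and less RNA per cell cannot be told apart either. The labels give no age or sex and do not say whether a replicate is 1 mouse or a pool.

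E proteins are basic helix-loop-helix factors that pair with each other, bind the E-box CANNTG, and switch on T lineage genes such as Ptcra and the Rag genes. Id proteins have the helix-loop-helix part without the basic DNA-contacting part, and a pairing with an E protein therefore does not bind DNA. In mouse thymocytes, signals from the pre-T cell receptor are known to raise Id3 through ERK and EGR factors, and E proteins before that point hold cells at the checkpoint. ZFP36L1 and ZFP36L2, the proteins deleted in DCKO, bind AU-rich stretches of messenger RNA and promote its decay.

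The promoters of the Id genes with an entry in RefSeq's table (GRCm38.p6, 250 bases before to 50 bases after the start) are shown because these genes moved in opposite directions between the control stages. Entries existed for 4 of the 6 genes, Tcf3, Tcf12, Id2 and Id3. The sequences run 5′ to 3′, and capitals mark CANNTG.
Id3 promoter, chr4:136143572-136143871, plus strand: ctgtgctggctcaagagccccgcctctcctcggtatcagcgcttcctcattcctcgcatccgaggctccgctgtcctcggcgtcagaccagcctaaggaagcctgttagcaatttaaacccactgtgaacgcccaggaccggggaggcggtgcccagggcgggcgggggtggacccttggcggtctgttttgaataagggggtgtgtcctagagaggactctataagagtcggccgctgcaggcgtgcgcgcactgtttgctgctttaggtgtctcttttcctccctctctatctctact
Id2 promoter, chr12:25096043-25096342, minus strand: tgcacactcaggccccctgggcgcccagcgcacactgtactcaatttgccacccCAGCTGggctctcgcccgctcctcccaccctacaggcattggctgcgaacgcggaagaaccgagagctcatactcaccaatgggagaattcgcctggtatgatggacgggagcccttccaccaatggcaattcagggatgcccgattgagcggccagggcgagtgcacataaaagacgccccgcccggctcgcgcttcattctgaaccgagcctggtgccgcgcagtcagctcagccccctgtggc
The Id2 window held 1 E-box, a CAGCTG that starts at base 55, and the Id3 window held none. CANNTG was searched on both strands and stood in 72.3% of the 32851 promoters of the table, and CAGCTG, a subset of it, in 16.3%. The EGR motif GCGNGGGCG, present in 5.55% of all promoters, was in neither window nor in those of Tcf3 and Tcf12, and CAGGTG, present in 20.2%, was in none of them either.

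The heptamer TATTTAT, an AU-rich core that ZFP36 family proteins are known to bind as RNA, was searched on the sense strand of the longest annotated 3′ UTR (GENCODE M21, GRCm38). It stood once in Tcf12 and in 2 places in Id2, shown here with 10 bases on either side and the heptamer in capitals.
Tcf12 site, chr9:71846195-71846221, minus strand: ctacaaatttTATTTATtgttatggaa
Id2 first site, chr12:25094356-25094382, minus strand: gtgataccgtTATTTATgagagacttt
Id2 second site, chr12:25094107-25094133, minus strand: gctgtgtataTATTTATatataaatat
The 3′ UTRs of Tcf3, Tcf4, Id1 and Id3 held no match. Of 11683 tested genes with a 3′ UTR, 29.8% held the heptamer. Among genes with a 3′ UTR within 20% of Id2's length of 785 bases, 3.47% held as many as 2, and among those near Tcf12's 3884 bases 58.6% held at least 1. These matches are letters in an annotation, and no binding was measured.

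Libraries held 30401159 to 41258922 counts in DCKO, 32359182 to 41664096 in DN3b and 28479157 to 45975678 in DN3a, and levels are given as CPM, reads of a gene scaled to library sizes with TMM factors. The deleted genes were low in DCKO: Zfp36l2 averaged 63.9 CPM, against 364 CPM in DN3b and 541 CPM in DN3a, and Zfp36l1 averaged 2.33, 14.3 and 33.9 CPM in the same order of groups. Summed pre-T cell markers (11 of 11 detected) ran from 8659 to 13440 CPM in DCKO, 5634 to 7574 CPM in DN3b and 7647 to 10730 CPM in DN3a. Rag1 was the largest part of the DCKO sum, with means of 4315, 997 and 1812 CPM in the same order of groups. Il2ra, the CD25 gene, averaged 225, 142 and 654 CPM in that order. It was lower in DCKO than in DN3a, by 1.54 on the log2 scale (edgeR adjusted p = 0.00078). In DCKO library 1, 1 feature took 9.02% of all counts. Results were also computed without DCKO libraries 1 and 2 together, and without the first library of both control groups, alternatives chosen after the data were seen. Of 13944 genes, 2635 passed an adjusted p of 0.05 between DCKO and DN3b, of which 1438 were higher and 1197 lower in DCKO. With upper quartile scaling the split was 1051 higher and 1644 lower. The same scaling turned 4275 higher and 4116 lower in DCKO against DN3a into 3119 and 5528, and 3815 higher and 3519 lower in DN3b against DN3a into 3021 and 4536. The 3 comparisons share libraries, so they are not independent of each other.

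**Figure D1:**
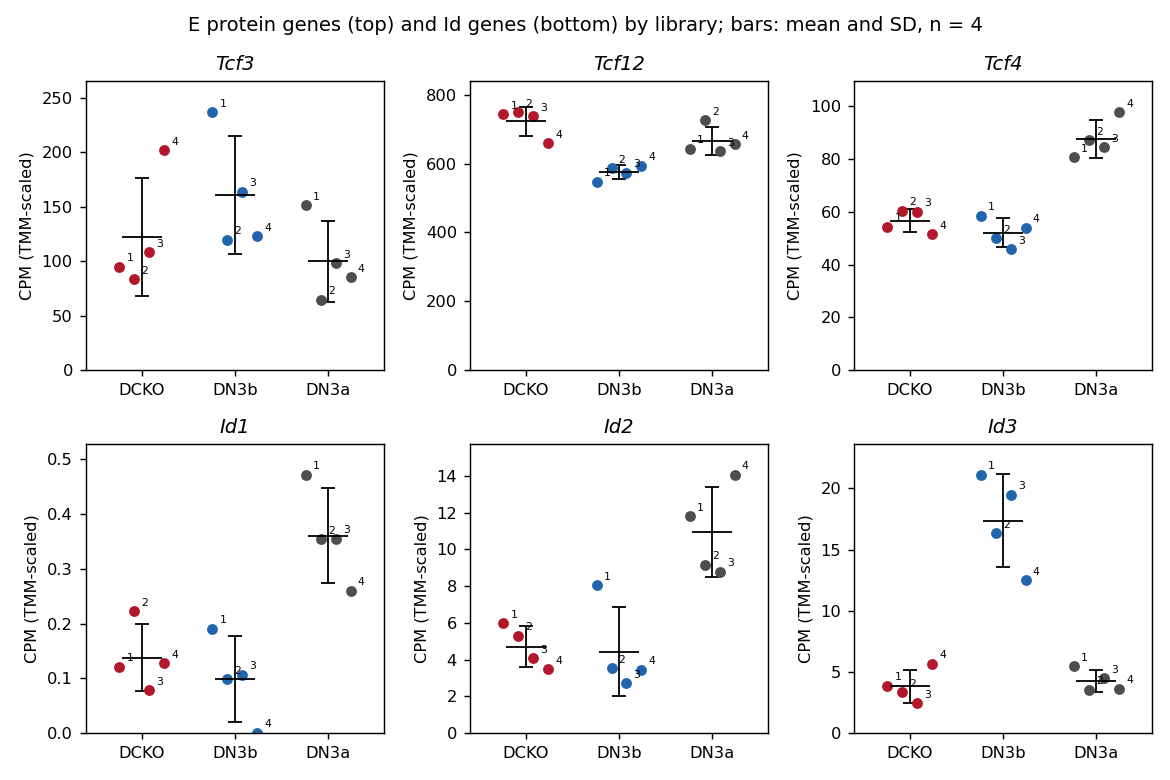
Level of each gene in CPM (y axes, linear from 0) in the 12 libraries of DCKO, DN3b and DN3a (x axes); points are libraries with their replicate number, and bars give the mean and SD over 4 libraries. All 4 DN3b libraries lie above all others for Id3 (12.5 to 21.1 CPM), and all 4 DN3a libraries lie above all others for Tcf4, Id1 and Id2.

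Id3 was the member with the clearest difference between DCKO and its DN3b control. Its level was 3.87, 3.34, 2.43 and 5.65 CPM in DCKO libraries 1 to 4, against 21.1, 16.3, 19.5 and 12.5 CPM in DN3b. The highest DCKO library was below the lowest DN3b library. Id3 fell by 2.19 ± 0.26 on the log2 scale (SE; 4.55-fold lower in DCKO; edgeR adjusted p = 0.000156). In DN3a it stood at 5.46, 3.54, 4.48 and 3.61 CPM, a range that overlapped that of DCKO, and the log2 difference of DCKO from DN3a was -0.16 ± 0.26 (edgeR adjusted p = 0.601). In DN3b against DN3a, Id3 rose by 2.02 ± 0.26 (edgeR adjusted p = 7.48e-05). The p between DCKO and DN3a does not show equal levels: the SE allows differences of either sign. Over all alternatives the log2 fold change against DN3b lay between -2.44 and -1.99 and stayed past the threshold, including -2.11 without DCKO libraries 1 and 2 (edgeR adjusted p = 0.00746). In the authors' deposited table it was -1.95 (adjusted p = 9.35e-15).

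Id2 followed a different order, with DN3a highest. Its level was 5.97, 5.29, 4.08 and 3.48 CPM in DCKO, 8.05, 3.51, 2.71 and 3.45 CPM in DN3b, and 11.8, 9.16, 8.79 and 14.1 CPM in DN3a. Both DCKO and DN3b lay wholly below DN3a, and DN3b library 1 stood well above its 3 replicates. Against DN3a, Id2 fell by 1.22 ± 0.32 on the log2 scale in DCKO (2.33-fold; edgeR adjusted p = 0.00518) and by 1.30 ± 0.32 in DN3b (2.47-fold; edgeR adjusted p = 0.00437). Between DCKO and DN3b the log2 difference was 0.08 ± 0.32 (edgeR adjusted p = 0.886).

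Id1, an Id gene known mainly as a target of BMP signalling, was at the edge of detection. It had 3, 8, 3 and 4 reads in the DCKO libraries, 8, 4, 4 and 0 reads in DN3b, and 16, 19, 15 and 8 reads in DN3a. The count of 0 in DN3b library 4 allows up to 3 reads, which is 0.0976 CPM in that library and covers counting error only. In sum, 18 reads in DCKO, 16 in DN3b and 58 in DN3a named the gene, and no CPM value of DCKO or DN3b reached those of DN3a. Id1 fell by 1.77 ± 0.54 on the log2 scale in DN3b against DN3a (edgeR adjusted p = 0.0154). It fell by 1.37 ± 0.54 in DCKO against DN3a (edgeR adjusted p = 0.042), a call lost without DCKO library 1, 3 or 4, DN3a library 1, 2 or 3, or DN3b library 2 or 3, with adjusted p from 0.0509 to 0.107. Against DN3b the difference of DCKO was 0.41 ± 0.62 (edgeR adjusted p = 0.684).

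Among the E protein genes, Tcf12 differed by small amounts between the groups. Its level was 744, 750, 737 and 659 CPM in DCKO, 547, 586, 574 and 594 CPM in DN3b, and 643, 727, 636 and 656 CPM in DN3a. The DCKO and DN3b libraries did not overlap, while DCKO and DN3a did. Tcf12 rose in DCKO against DN3b by 0.33 ± 0.09 on the log2 scale (1.25-fold; edgeR adjusted p = 0.0192). That call was lost without DCKO library 1, 2 or 3 or DN3b library 2 or 3 (adjusted p from 0.0568 to 0.0732), and without DCKO libraries 1 and 2 together the log2 value was 0.28 (adjusted p = 0.172). Against DN3a the log2 difference was 0.12 ± 0.09 in DCKO (edgeR adjusted p = 0.251) and -0.21 ± 0.09 in DN3b (adjusted p = 0.0558). Same-numbered DN3b and DN3a libraries deviated together, which the fit with group alone leaves out, and in every such pair Tcf12 was lower in DN3b. With the replicate number as a block the DN3b difference passed the threshold, at -0.23 (adjusted p = 0.0136), as it did without DCKO library 1 (adjusted p = 0.0469).

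Tcf4, whose product E2-2 is best known from plasmacytoid dendritic cells, separated DN3a from both other groups. It had 54.3, 60.4, 60.1 and 51.5 CPM in DCKO, 58.5, 49.96, 45.9 and 54.0 CPM in DN3b, and 80.8, 87.2, 84.5 and 97.8 CPM in DN3a. The lowest DN3a library was above the highest of the other groups. Tcf4 fell by 0.63 ± 0.10 on the log2 scale in DCKO (1.55-fold; edgeR adjusted p = 0.000177) and by 0.75 ± 0.10 in DN3b (1.68-fold; adjusted p = 9.95e-05). DCKO and DN3b overlapped, with a log2 difference of 0.12 ± 0.10 (edgeR adjusted p = 0.432). Summed plasmacytoid dendritic cell markers (10 genes) ran from 511 to 762 CPM in DCKO, 226 to 898 CPM in DN3b and 468 to 1062 CPM in DN3a, and the defining marker Siglech had a mean of 0 CPM in DCKO, 0.0262 CPM in DN3b and 0.0209 CPM in DN3a. The sums came mostly from Ly6d (means of 245, 258 and 363 CPM in DCKO, DN3b and DN3a) and Ccr9 (206, 100 and 200 CPM). Between DCKO and DN3a, 30.7% of all genes were higher in DCKO and 29.5% lower. Of 6 of these markers tested, the 3 that passed in that comparison were higher in DCKO. They were Cox6a2 (2.36, edgeR adjusted p = 0.00778), Bst2 (0.73, adjusted p = 0.0183) and Irf8 (0.52, adjusted p = 0.0269). Without passing, Spib (-1.07, adjusted p = 0.201) and Ly6d (-0.57, adjusted p = 0.234) were lower in DCKO, and Ccr9 differed by 0.04 (adjusted p = 0.945). In DN3b against DN3a Irf8 was higher and Spib lower. The Spib call (-1.89, edgeR adjusted p = 0.0397) was lost in 8 of 23 alternatives.

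Tcf3 varied widely between the replicates of a group. It had 95.0, 83.6, 109 and 202 CPM in DCKO, 237, 120, 164 and 123 CPM in DN3b, and 152, 64.9, 98.0 and 85.3 CPM in DN3a. All 3 groups overlapped, and none of the 3 differences passed the threshold in the fit with group alone: -0.40 ± 0.32 for DCKO against DN3b (edgeR adjusted p = 0.409), 0.29 ± 0.32 for DCKO against DN3a (0.442) and 0.69 ± 0.32 for DN3b against DN3a (0.0849). That fit leaves out the pairing of same-numbered DN3b and DN3a libraries, and in every such pair Tcf3 was higher in DN3b. With the replicate number as a block, the difference between DN3b and DN3a passed, at 0.68 (adjusted p = 8.62e-05). It also passed without DN3a library 1, at 0.95 (adjusted p = 0.0241), and without DCKO library 4, at 0.69 (adjusted p = 0.0414). In the authors' deposited table it was 0.65 with an adjusted p of 0.0472.

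The transcript of Tcf3 is rich in G and C, at 61%, more than in 97.7% of the genes tested. Its level moved with the balance of GC-rich and GC-poor genes in a library, measured as the median log2 deviation of the 2765 genes with the highest GC content minus that of the 2765 with the lowest. In DCKO that balance was -0.35, -0.43, -0.34 and 0.27 in libraries 1 to 4, and the Tcf3 deviation from its mean was -0.33, -0.51, -0.13 and 0.76. DN3b library 1 had the highest balance of all, 0.65, and the highest Tcf3 deviation, 0.99, and DN3a library 2 had the lowest of both, -0.48 and -0.88. After a GC correction of each library, added after the data were seen, Tcf3 differed between DCKO and DN3a by 0.45 (adjusted p = 0.0139) and between DN3b and DN3a by 0.42 (adjusted p = 0.0212). Between DCKO and DN3b it then differed by 0.03 (adjusted p = 0.922). The part of GC content in the uncorrected values was not tested beyond this.

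**Figure D2:**
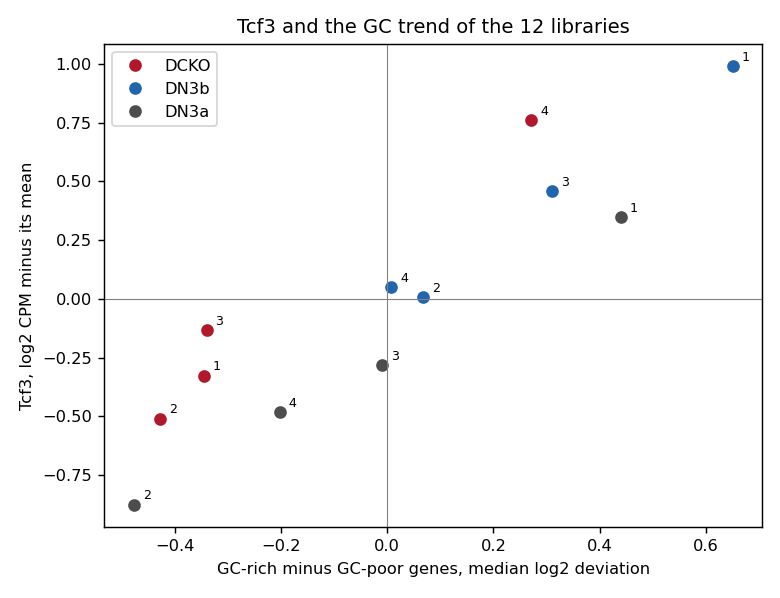
Deviation of Tcf3 from its mean over the libraries (y axis, log2 CPM) against the median log2 deviation of GC-rich minus GC-poor genes (x axis, log2) in the 12 libraries; points are libraries with their replicate number, coloured by group. DN3b library 1 is at the upper right (0.65 and 0.99) and DN3a library 2 at the lower left (-0.48 and -0.88).

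Counted together, 1 of the 6 genes was higher and 1 lower in DCKO than in DN3b, where 10.3% of all genes tested were higher and 8.58% lower. Against DN3a, the 3 genes that passed in DCKO were all lower, where 30.7% of all genes were higher and 29.5% lower. In DN3b against DN3a, 1 of the 6 was higher and 3 were lower (27.4% and 25.2% of all genes). These counts are from the fit with group alone, which leaves out the pairing of same-numbered DN3b and DN3a libraries. With the replicate number as a block, Tcf3 (higher) and Tcf12 (lower) also passed in that comparison. The block also raised the number of all genes called there from 7334 to 9233. Libraries did not overlap for 2 of the 6 genes between DCKO and DN3b, against 20.9% of all genes. They did not overlap for 3 between DCKO and DN3a, against 54.9%, and for 5 between DN3b and DN3a, against 47.9%. With 6 genes and backgrounds of this size, the count of changed members against DN3a in the fit with group alone was near the share among all genes. In that fit the Id genes made up 2 of the 3 falls in each comparison with DN3a, and Tcf4 the other.

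**Figure D3:**
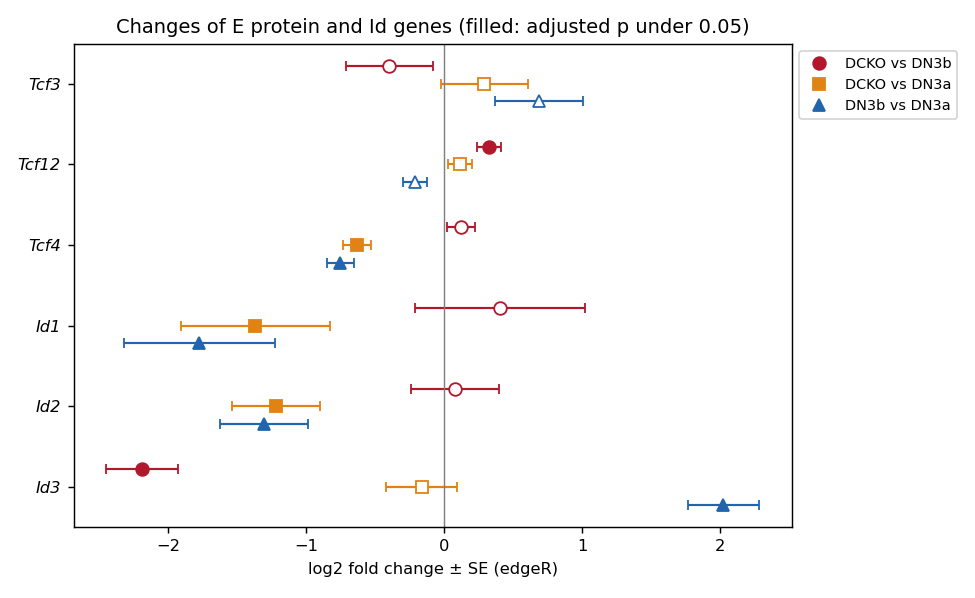
Log2 fold change with its SE (x axis) for each of the 6 genes (y axis) in DCKO against DN3b (circles), DCKO against DN3a (squares) and DN3b against DN3a (triangles), from edgeR with 4 libraries a group; filled symbols passed an adjusted p of 0.05. Id3 lies at -2.19 in DCKO against DN3b and at 2.02 in DN3b against DN3a, with -0.16 in DCKO against DN3a.

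To set genes side by side, CPM were divided by the length of merged exons in kilobases. That length is 27.4 kb for Tcf4, whose longest transcript is 8.58 kb, so its place depends on the length used. Per kilobase of the longest transcript, Tcf4 stood before Id3 in DCKO and before Id2 in DN3a. In DCKO the order was Tcf12 at 46.5 ± 2.73 CPM per kb (SD, n = 4), Tcf3 at 30.3 ± 13.4, Id3 at 2.13 ± 0.756, Tcf4 at 2.07 ± 0.159, Id2 at 1.93 ± 0.464 and Id1 at 0.119 ± 0.0525. Tcf12 and Tcf3 overlapped there, as did Id3, Tcf4 and Id2 in turn. In DN3b, Tcf3 (39.8 ± 13.5) and Tcf12 (37.1 ± 1.32) overlapped at the top, Id3 followed at 9.69 ± 2.12 CPM per kb clear of its neighbours, and Tcf4 (1.90 ± 0.198) and Id2 (1.82 ± 1.0) overlapped above Id1 (0.0851 ± 0.0672). In DN3a, Tcf12 (42.9 ± 2.69) and Tcf3 (24.7 ± 9.17) did not overlap, and Id2 (4.49 ± 1.01) led the low group before Tcf4 (3.20 ± 0.268), Id3 (2.39 ± 0.501) and Id1 (0.311 ± 0.0748 CPM per kb), where Tcf4 and Id3 overlapped. The place of Id3 among the Id genes was thus first in DN3b and after Id2 in DN3a, with the order of the 2 within their spread in DCKO.

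Summed over the 3 E protein genes, the level per kilobase was 78.9 ± 10.6 in DCKO, 78.8 ± 12.3 in DN3b and 70.8 ± 7.46 in DN3a (SD, n = 4 each), with overlapping libraries. The 3 Id genes summed to 4.18 ± 0.756 CPM per kb in DCKO, 11.6 ± 2.88 in DN3b and 7.19 ± 1.13 in DN3a, and no library of a group overlapped with another group. The E sum divided by the Id sum was 15.6, 16.9, 24.7 and 20.1 in DCKO, 6.30, 6.50, 6.56 and 8.43 in DN3b, and 9.88, 10.9, 10.7 and 8.36 in DN3a. Every DCKO library had a higher ratio than any control library, and the highest DN3b library just exceeded the lowest of DN3a. Per kilobase of the longest transcript the ratio was 25.4 to 39.8 in DCKO, 8.38 to 12.4 in DN3b and 14.2 to 19.1 in DN3a. Id3 gave 50.3% ± 11.3 of the Id sum in DCKO, 84.0% ± 5.31 in DN3b and 33.4% ± 6.10 in DN3a, and Id2 gave 46.9%, 15.3% and 62.2% in the same order of groups. These sums are a description of transcripts and carry no test, since the 6 genes were chosen with results known, and protein was not measured.

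**Figure D4:**
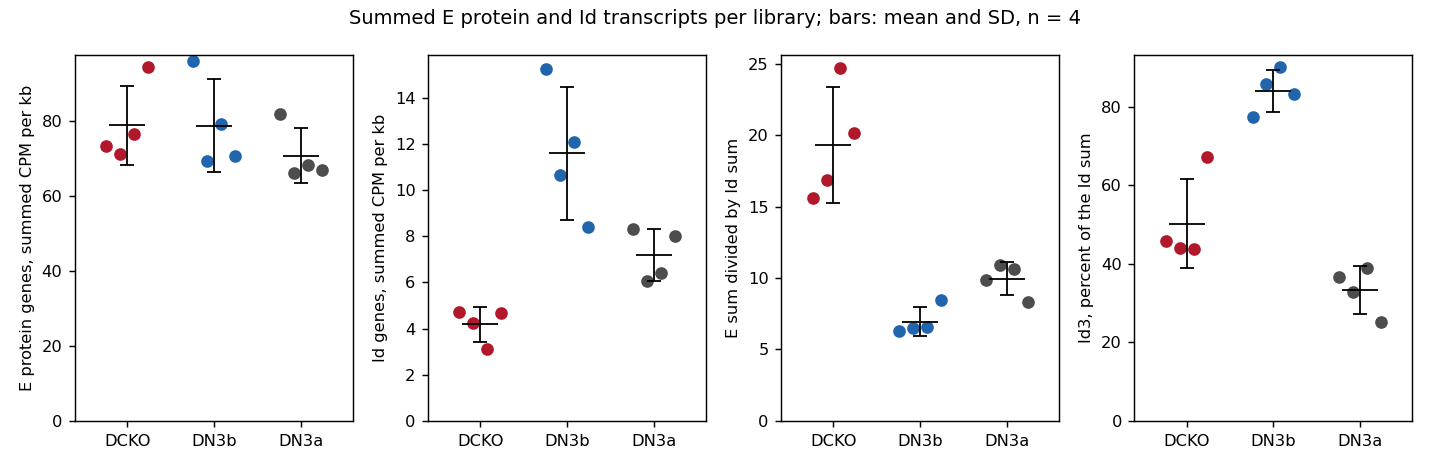
Summed CPM per kb of the 3 E protein genes, of the 3 Id genes, their ratio, and the share of Id3 in the Id sum (y axes, linear from 0) in DCKO, DN3b and DN3a (x axes); points are libraries, and bars give the mean and SD over 4. The ratio was 15.6 to 24.7 in DCKO, 6.30 to 8.43 in DN3b and 8.36 to 10.9 in DN3a.

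The genes are counted as a whole, so the E12 and E47 forms of Tcf3 and the long and short forms of Tcf12 are not resolved. By Ensembl gene (GENCODE M21, GRCm38), Id3 lies at chr4:136143497-136145755 on the plus strand, Id2 at chr12:25093799-25097140 on the minus strand and Id1 at chr2:152736251-152737410 on the plus strand. Tcf3 lies at chr10:80409514-80433647 and Tcf12 at chr9:71842688-72111871, both on the minus strand. None of the members shares exon bases with an overlapping gene in that annotation.

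The genes that act with E and Id proteins were counted in 7 lists of 79 genes in all, of which 66 passed the filter. Between DCKO and DN3b, 11 were higher and 6 lower, 25.8% of those tested against 18.9% of all genes. The total of 17 became 9 without DCKO libraries 1 and 2, 26 without the first library of each control group, and 11 with a replicate block. The numbers of DCKO libraries did not pair with those of the controls, so in comparisons with DCKO that block groups unpaired libraries. Calls lost with it there, here and below, say little about the genes. Against DN3a, DCKO had 19 higher and 18 lower (56.1%, against 60.2% of all genes) and DN3b 16 higher and 28 lower (66.7%, against 52.6%). Both lists and members were chosen with results of these data known, and the genes named below kept their call under every alternative in which they were tested, unless a loss is given.

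Partners of E proteins include the class II factors TAL1 and LYL1, the LIM-only proteins and their bridging factors. Of 9 tested, the 3 that passed between DCKO and DN3b were all higher in DCKO, where 18.9% of all genes passed. The list's median log2 difference was 0.49 (-0.02 over all genes). Ssbp2, which encodes a cofactor that stabilises LDB1, averaged 62.1 ± 2.72 CPM in DCKO, 44.2 ± 3.63 CPM in DN3b and 65.1 ± 2.67 CPM in DN3a (SD, n = 4 each). DN3b was the group apart: Ssbp2 rose by 0.49 in DCKO against DN3b (edgeR adjusted p = 0.00181) and fell by 0.56 in DN3b against DN3a (adjusted p = 0.000199). Lmo4, a LIM-only gene, averaged 70.0 CPM in DCKO, 46.6 CPM in DN3b and 27.4 CPM in DN3a. It rose in DCKO by 0.59 against DN3b (adjusted p = 0.0196, and 0.0704 without DN3b library 2) and by 1.36 against DN3a (adjusted p = 1.82e-05), and in DN3b by 0.77 against DN3a (adjusted p = 0.00134). Bhlhe40, a helix-loop-helix repressor gene, fell by 1.25 in DCKO against DN3a (adjusted p = 0.00191), and it fell by 1.79 in DN3b against DN3a (adjusted p = 0.00028). Tal1 was near the limit of detection, at 0.598 CPM in DCKO, 0.129 CPM in DN3b and 0.525 CPM in DN3a, and its calls against DN3b (2.15, adjusted p = 0.0468) and in DN3b against DN3a (-1.96, adjusted p = 0.0306) were both lost without DN3b library 2, 3 or 4. The first was also lost without DCKO library 1, 2 or 3, DCKO libraries 1 and 2 together or DN3a library 2, 3 or 4, with no filter and with upper quartile scaling, and the second without DN3a library 1 or 4.

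Of 8 coregulators tested, 1 rose and 1 fell between DCKO and DN3b, where 18.9% of all genes passed. Kat2b, which encodes the acetyltransferase PCAF, had 197, 193, 183 and 163 CPM in DCKO, 84.8, 67.7, 64.4 and 67.2 CPM in DN3b, and 130, 144, 120 and 129 CPM in DN3a. The 3 groups did not overlap, with DCKO above both controls. Kat2b rose in DCKO by 1.37 ± 0.11 against DN3b (2.59-fold; edgeR adjusted p = 7.08e-06) and by 0.49 ± 0.11 against DN3a (adjusted p = 0.00135), and it fell by 0.88 in DN3b against DN3a (adjusted p = 5.48e-05). Crebbp, which encodes the coactivator CBP, fell by 0.51 in DCKO against DN3a (adjusted p = 0.00314), and it fell by 0.53 in DN3b against DN3a (adjusted p = 0.00335). Kat2a, which encodes a relative of PCAF, rose by 0.61 in DN3b against DN3a (adjusted p = 0.00339). The calls of Ep300, which encodes the coactivator p300 (-0.40, adjusted p = 0.0157), and of the corepressor gene Ncor1 (-0.30, adjusted p = 0.0185) in DCKO against DN3a were lost without DCKO libraries 1 and 2, and that of Ncor1 also without DCKO library 4 and with no filter.

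Of 9 tested genes reported to act on the turnover of E or Id proteins, Rbx1, a subunit gene of cullin ubiquitin ligases, was the one to pass between DCKO and DN3b. It rose by 0.42 (adjusted p = 0.0081), a call lost without DCKO libraries 1 and 2 (adjusted p = 0.124) and with the replicate block (adjusted p = 0.0972). Against DN3a, the 7 genes that passed in DCKO and the 8 in DN3b were all higher, with median log2 differences of 0.54 and 0.68 for the list. Among all genes, 30.7% were higher in DCKO and 27.4% in DN3b. Cdc20, which encodes an activator of the anaphase-promoting complex, averaged 147 CPM in DCKO, 153 CPM in DN3b and 30.8 CPM in DN3a. Skp2, a ubiquitin ligase subunit gene, averaged 150 CPM in DCKO, 115 CPM in DN3b and 43.7 CPM in DN3a. Usp1, which encodes a deubiquitinase reported to stabilise Id proteins in human osteosarcoma, averaged 378 CPM in DCKO, 330 CPM in DN3b and 167 CPM in DN3a. Both DCKO and DN3b exceeded DN3a in these genes by the test, by 2.26 and 2.31 for Cdc20, 1.78 and 1.39 for Skp2, 1.18 and 0.98 for Usp1 and 1.10 and 0.68 for Rbx1 on the log2 scale. Cdc20 and Skp2 are also genes of dividing cells, and the part of cell division in these differences was not tested.

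Genes reported to be activated by E proteins (17, all tested) had 4 higher and 1 lower in DCKO than in DN3b, with a median log2 difference of 0.41. Against DN3a, 3 were higher and 4 lower in DCKO (median -0.28), and 1 was higher and 10 lower in DN3b (median -0.94). Among all genes, 18.9% passed between DCKO and DN3b, 60.2% between DCKO and DN3a and 52.6% between DN3b and DN3a. Cdkn1a, a cell cycle inhibitor gene, had 23.1, 53.8, 46.6 and 33.9 CPM in DCKO, 6.21, 4.52, 3.08 and 2.77 CPM in DN3b, and 18.6, 12.5, 14.9 and 18.03 CPM in DN3a. The 3 groups did not overlap. Cdkn1a rose in DCKO by 3.24 against DN3b (edgeR adjusted p = 2.42e-05) and by 1.30 against DN3a (adjusted p = 0.00151), and it fell by 1.94 in DN3b against DN3a (adjusted p = 0.000199).

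The recombinase genes were also higher in DCKO than in DN3b. Rag1 had 5274, 6799, 3094 and 2091 CPM in DCKO, 1629, 846, 748 and 765 CPM in DN3b, and 2486, 1589, 1316 and 1859 CPM in DN3a. DCKO libraries 1 and 2 were the highest of all, and DCKO library 4 lay within the range of DN3a. Rag1 rose by 2.11 in DCKO against DN3b (edgeR adjusted p = 0.00191), and its rise of 1.25 against DN3a (adjusted p = 0.00877) was 0.50 without DCKO libraries 1 and 2 (adjusted p = 0.247). Rag2 rose by 1.28 in DCKO against DN3b (adjusted p = 0.00606, and 0.105 without those libraries), and it fell by 1.33 in DN3b against DN3a (adjusted p = 0.00138).

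Of other members of that list, Foxo1 was lower in DCKO than in DN3b, and Hes1 and Ptcra were higher without passing with the settings reported. Foxo1, a forkhead factor gene, averaged 2.74 CPM in DCKO, 7.35 CPM in DN3b and 9.17 CPM in DN3a. It fell by 1.73 in DCKO against DN3a (adjusted p = 0.00211), and its difference of -1.41 against DN3b (adjusted p = 0.025) was lost without DCKO library 2, DCKO libraries 1 and 2 together, DN3b library 2 or DN3b library 3. Hes1, a Notch target, fell by 1.67 in DN3b against DN3a (adjusted p = 0.00278), and in DCKO its difference from DN3a was -0.57 (adjusted p = 0.196). Between DCKO and DN3b Hes1 differed by 1.1 (edgeR adjusted p = 0.0584), and it passed the threshold in 6 of 22 alternatives. Ptcra, which encodes the pre-T alpha chain, differed by 0.64 between DCKO and DN3b (adjusted p = 0.300), and by 1.29 without DN3b library 1, past the threshold. Of the 2 genes reported to be repressed by E2A, Gata3 and Cdk6, neither passed between DCKO and DN3b. Cdk6 fell by 0.48 in DN3b against DN3a (adjusted p = 0.0046), and its difference of -0.37 in DCKO (adjusted p = 0.0171) was -0.21 without DCKO libraries 1 and 2 (adjusted p = 0.147).

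**Figure D5:**
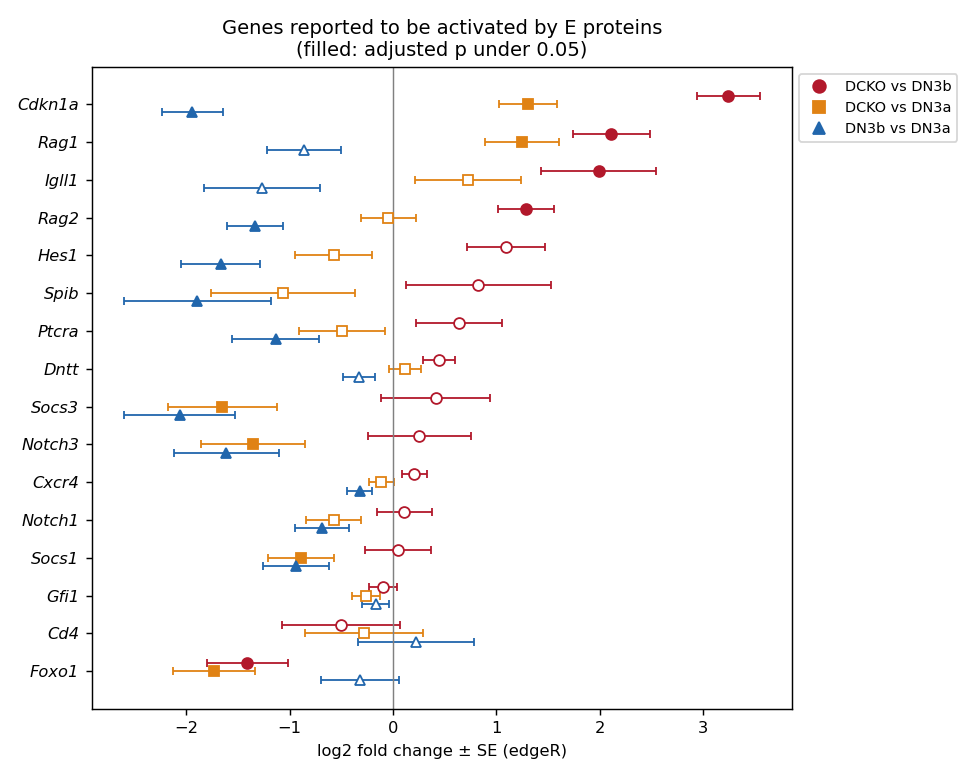
Log2 fold change with its SE (x axis) of 16 of the 17 genes reported to be activated by E proteins (y axis, ordered by DCKO against DN3b) in DCKO against DN3b (circles), DCKO against DN3a (squares) and DN3b against DN3a (triangles); filled symbols passed an adjusted p of 0.05. Cdkn1a is at the top with 3.24 in DCKO against DN3b, and Foxo1 at the bottom with -1.73 in DCKO against DN3a.

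Of 10 tested genes between the pre-T cell receptor and Id3, the 2 that passed between DCKO and DN3b were both lower in DCKO. That count was near the share among all genes, of which 18.9% passed in that comparison. Egr1, which encodes an immediate early factor, had 0, 0.278, 0.131 and 0.255 CPM in DCKO, 2.05, 2.33, 2.15 and 1.53 CPM in DN3b, and 3.22, 2.09, 2.09 and 1.56 CPM in DN3a. All 4 DCKO libraries lay below all control libraries, whose groups overlapped. Egr1 fell by 3.52 ± 0.48 in DCKO against DN3b (edgeR adjusted p = 0.000392), and it fell by 3.67 ± 0.48 in DCKO against DN3a (adjusted p = 4.16e-05). DN3b differed from DN3a by -0.15 (adjusted p = 0.766). Egr2, a relative of Egr1, averaged 0.045 CPM in DCKO, 0.406 CPM in DN3b and 1.13 CPM in DN3a. It fell by 4.53 in DCKO against DN3a (adjusted p = 0.000596), and its difference of -3.09 against DN3b (adjusted p = 0.0313) was lost without DCKO library 1, 2 or 3, without DN3b library 1 or 2, without DCKO libraries 1 and 2 together, and without the first library of both control groups (adjusted p from 0.0731 to 0.234).

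The other genes of that list separated DN3a from the rest. Nfatc2, which encodes a calcium-responsive factor, fell by 2.03 in DCKO against DN3a (edgeR adjusted p = 4.01e-05), and it fell by 1.29 in DN3b against DN3a (adjusted p = 0.00115). Elk4, which encodes an ERK-responsive partner of SRF, fell by 0.65 in DCKO against DN3a (adjusted p = 0.000843), and it fell by 0.56 in DN3b against DN3a (adjusted p = 0.00314). Nfatc3 rose by 0.77 (adjusted p = 0.00226) and Mapk3, the gene of ERK1, by 0.74 (adjusted p = 0.0067) in DN3b against DN3a.

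BMP and TGF-beta signals are known inducers of Id genes in many cell types. Of 11 genes of their receptors and SMADs tested, 2 rose and 2 fell in DCKO against DN3b, where 18.9% of all genes passed. In DCKO against DN3a 3 rose and 3 fell (60.2% of all genes passed). The 6 that passed in DN3b against DN3a (52.6% of all genes) were all lower in DN3b. Tgfbr1, which encodes the type I receptor, had 440, 504, 412 and 303 CPM in DCKO, 213, 177, 165 and 171 CPM in DN3b, and 276, 283, 263 and 266 CPM in DN3a. The groups did not overlap, with DCKO highest. Tgfbr1 rose by 1.19 in DCKO against DN3b (edgeR adjusted p = 0.000132) and by 0.61 against DN3a (adjusted p = 0.00202, and 0.0524 without DCKO libraries 1 and 2), and it fell by 0.59 in DN3b against DN3a (adjusted p = 0.00327). Tgfbr2, which encodes the type II receptor, averaged 17.0 CPM in DCKO, 24.9 CPM in DN3b and 44.2 CPM in DN3a. It fell by 1.38 in DCKO against DN3a (adjusted p = 9.24e-06), it fell by 0.83 in DN3b against DN3a (adjusted p = 0.00043), and its difference of -0.55 between DCKO and DN3b (adjusted p = 0.0169) was lost without DCKO libraries 1 and 2 (adjusted p = 0.141) and with the replicate block (adjusted p = 0.0959).

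Among the SMADs, Smad2 and Smad3, which transmit TGF-beta signals, rose in DCKO against DN3a by 0.60 (edgeR adjusted p = 0.000137) and 0.59 (adjusted p = 0.00273). Smad2 also rose by 0.47 in DCKO against DN3b (adjusted p = 0.00384, against 0.0584 without DCKO libraries 1 and 2 and 0.0683 with the replicate block). Smad5, of the BMP branch, fell by 0.45 in DN3b against DN3a (adjusted p = 0.000802), and Smad4, the shared partner, fell by 0.35 (adjusted p = 0.00196). The difference of Smad1 between DCKO and DN3b, -0.30 (adjusted p = 0.0277), was lost without DCKO library 1 or 2 or both, without DN3b library 3 or 4, with the replicate block, GC correction or no filter, and with only the 8 libraries compared (adjusted p from 0.0501 to 0.216).

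Likeness to each member was measured over all 12 libraries as the root mean square difference of log2 CPM centred on each gene's mean, among 8659 genes of sufficient level. The nearest gene to Id3 was Zap70, a kinase gene of T cell receptor signalling, at 0.411 log2 units, where Id3 itself varied with an SD of 1.05. Zap70 averaged 16.5 ± 1.47 CPM in DCKO, 67.3 ± 13.0 in DN3b and 19.2 ± 4.33 in DN3a, so its groups stood in the same order as those of Id3. Next to Id3 came Abhd8 (0.504) and Mettl26 (0.506). Nearest to Tcf3 (SD 0.53) were Ints1 (0.107), Dus3l (0.128) and Zfp574 (0.142). Nearest to Tcf12 (SD 0.151) were Cog3 (0.0532), Slk (0.0534) and Mapk9 (0.0595), and nearest to Tcf4 (SD 0.348) were Senp7 (0.0936), Mpp1 (0.0989) and Rnf6 (0.107). Id2 (SD 0.747) was closest to Pgpep1l (0.252), Mettl7a1 (0.258) and Serpinb6b (0.259), and Id1 (SD 0.859) to Nwd1 (0.283), Vsir (0.322) and Slfn2 (0.324). The likeness is a description over libraries that share depth and GC trends, and it has no test.

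Markers of other cells that use Id genes differed between the groups beside these results. Id2 and Id3 are abundant in innate-like and gamma-delta T cells, and the 9 gamma-delta markers in the table summed to 362 to 711 CPM in DCKO, 557 to 856 CPM in DN3b and 1430 to 1645 CPM in DN3a. In the same order of groups, the sums came mostly from Tcrg-C1 (means of 169, 185 and 503 CPM), Tcrg-C2 (173, 332 and 716 CPM) and Tcrg-C4 (56.3, 89.5 and 218 CPM). Etv5 (7.81, 32.2 and 5.86 CPM) was highest in DN3b, and Cd163l1 (47.5, 31.1 and 36.2 CPM) in DCKO. Of 8 gamma-delta markers tested, 5 were lower in DCKO than in DN3a, and in DN3b against DN3a 4 were lower and 1 higher. Among all genes, 29.5% were lower in DCKO than in DN3a, and 25.2% were lower and 27.4% higher in DN3b.

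NK and innate lymphoid markers (12) summed to 312 to 559 CPM in DCKO, 452 to 624 CPM in DN3b and 197 to 323 CPM in DN3a, mostly from Gzma (means of 372, 470 and 170 CPM). Of 7 tested, 2 rose and 1 fell in DCKO against DN3b, and 2 rose and 1 fell in DCKO against DN3a. In DN3b against DN3a 3 rose and 1 fell. Among all genes, 18.9%, 60.2% and 52.6% passed in these comparisons in turn. Tbx21, which encodes T-bet, averaged 2.76 CPM in DCKO, 0.957 CPM in DN3b and 0.155 CPM in DN3a, and rose in DCKO by 1.54 against DN3b (edgeR adjusted p = 0.0338) and by 4.12 against DN3a (adjusted p = 4.45e-05). Zbtb16, which encodes the innate-like T cell factor PLZF, averaged 9.003 CPM in DCKO, 3.12 CPM in DN3b and 5.26 CPM in DN3a, and rose by 1.52 in DCKO against DN3b (adjusted p = 0.0247). Il2rb, a cytokine receptor gene, averaged 0.211 CPM in DCKO, 1.37 CPM in DN3b and 0.122 CPM in DN3a, with DN3b highest as for Id3, and it fell by 2.72 in DCKO against DN3b (adjusted p = 0.00627). Nkg7 fell by 1.27 in DCKO against DN3a (adjusted p = 0.0113), and Gzma rose by 1.13 (adjusted p = 0.00122). Ncr1, Eomes, Klrd1, Klrb1c and Prf1 did not pass the filter on low counts. The alternatives were not run for these markers.

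B cell markers (10) summed to 20.6 to 25.4 CPM in DCKO, 10.9 to 34.1 CPM in DN3b and 46.2 to 61.1 CPM in DN3a, nearly all from Cd79b, with Pax5 at a mean of 0.00797, 0 and 0.00592 CPM. Stromal and endothelial markers (13) summed to 105 to 212 CPM in DCKO, 82.6 to 169 CPM in DN3b and 195 to 271 CPM in DN3a. Pecam1 was the largest part, with means of 107.5, 97.1 and 143.8 CPM in the same order of groups. Epcam (12.6, 24.4 and 96.1 CPM) was highest in DN3a, and Cdh5 (32.7, 1.44 and 1.06 CPM) in DCKO. Kdr, Tek, Tie1 and Esam did not pass the filter on low counts. Myeloid markers (12) summed to 43.2 to 62.7 CPM in DCKO, 40.6 to 62.7 CPM in DN3b and 65.2 to 71.8 CPM in DN3a. Markers of CD4 and CD8 expressing thymocytes (8 in the table) summed to 1182 to 1387 CPM in DCKO, 854 to 1286 CPM in DN3b and 1491 to 1803 CPM in DN3a. In the same order of groups, these sums came mostly from Arpp21 (means of 649, 527 and 861 CPM) and Themis (416, 380 and 595 CPM). Cd8a (2.81, 3.44 and 0.428 CPM), Cd8b1 (6.14, 18.7 and 0.453 CPM) and Trac (0.155, 2.04 and 0.245 CPM) were instead highest in DN3b. Of the 8 markers, 4 rose and 2 fell in DN3b against DN3a, where 27.4% of all genes rose and 25.2% fell. Early progenitor markers (11) summed to 39.5 to 57.0 CPM in DCKO, 21.7 to 35.2 CPM in DN3b and 39.8 to 61.4 CPM in DN3a. The part of such cells in the values of Id2, Id1 and Tcf4 was not tested.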

How the data were processed

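Per the labels' protocols, RNA isolated with a RNeasy Micro kit went into stranded total RNA libraries with ribosomal RNA removed. Tools listed in the submitters' processing notes are DESeq2 1.6.3, HTSeq, TopHat2 2.0.12 and Trim Galore, with GRCm38 as the build. No source used here gives the annotation release or the strand setting, so reads of antisense genes may be included. The deposited files hold unnormalized counts per gene, and the authors' DESeq2 results with log2 fold changes and adjusted p-values, quoted only where the authors' deposited table is named. Of 43629 genes, 42462 had a symbol in GENCODE M21.

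Genes were kept with filterByExpr (minimum count 10), which left 13944. With R 4.3.3 and edgeR 4.0.16, 1 quasi-likelihood model with TMM factors took all 12 libraries and had no term but group (9 residual degrees of freedom). Tests were two-sided, adjusted after Benjamini-Hochberg over all genes within a comparison, with 0.05 as the threshold. Every adjusted p in the text is from edgeR unless another tool is named. The SE is the log2 fold change divided by the square root of F. All replicate pairs differed beyond sampling noise (lowest chi-square per degree of freedom 32.3). The scripts were tested on simulated data. Counting error is small at these depths except for Id1, and PCR copies were not separated.

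DESeq2 1.42.0, other scalings and filters, each library left out in turn, only the 8 libraries compared, and a replicate block were tried, as were the alternatives chosen after the data were seen. Same-numbered DN3b and DN3a libraries deviated from their group means together (r from 0.354 to 0.564, each library closest to its own number), so these numbers were taken as pairing them; the numbers of DCKO did not pair (r from -0.257 to 0.119). The labels do not say what a number marks, and p-values measure the spread between these libraries.

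The members and the gene lists were chosen with earlier results of these data known. Named are the 6 members, Zfp36l1 and Zfp36l2, genes of the 7 lists, of which the up to 4 called genes of smallest adjusted p per list and comparison come first, and the 3 genes most like each member among genes whose log2 CPM averaged 3 or more. Ptcra, Gata3 and the Hes1 and Egr1 comparisons that did not pass were chosen after their values were seen. Results for 2 genes of these lists are not reported here, although the list counts include them.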

Additional observations from a re-analysis of the deposited data

Results flagged for a closer look

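In groups of 4, a library was picked out where its gap to the nearest other library took more than 0.829 of the group's range (Dixon's test), which chance does in about 1 in 20 groups. Of the 18 combinations of 6 genes and 3 groups, 2 were picked out. Tcf12 was 659.3 CPM in DCKO library 4, where the other DCKO libraries had 737 to 750 CPM. Id2 was 8.048 CPM in DN3b library 1, where the other DN3b libraries had 2.71 to 3.51 CPM. Without DN3b library 1, the log2 difference of Id2 between DN3b and DN3a was -1.76, against -1.30 with all libraries.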

How the results depend on the processing

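Under every alternative run, Id3 kept its fall in DCKO against DN3b (log2 from -2.44 to -1.99) and its rise in DN3b against DN3a (1.88 to 2.16), and Id2 and Tcf4 kept their falls against DN3a in both groups. Genes called between DCKO and DN3b numbered 950 without DCKO libraries 1 and 2, 1062 with the replicate block and 1601 to 3249 with 1 library left out. Calls in the 7 lists for that comparison (17) became 9 without DCKO libraries 1 and 2, 26 without the first control libraries and 11 with the replicate block. Id1 in DCKO against DN3a missed the threshold without DCKO libraries 1 and 2 (-1.82), with DESeq2 (-1.39), without the first control libraries (-1.23) and with no filter (-1.37), and ran from -1.75 to -1.19 with 1 library left out; it did not enter the test under the stricter filter, with only the 8 libraries compared or with the replicate block. Tcf12 in DCKO against DN3b missed it without DCKO libraries 1 and 2 (0.28), with no filter (0.32), with only the 8 libraries compared (0.31), with the replicate block (0.31) and with upper quartile scaling (0.25), and ran from 0.29 to 0.37 with 1 library left out. Tcf12 in DN3b against DN3a passed it with DESeq2 (-0.22), the replicate block (-0.23), the block with GC correction (-0.16), the stricter filter (-0.25) and upper quartile scaling (-0.36), and ran from -0.24 to -0.17 with 1 library left out. Tcf3 passed it with GC correction in DCKO against DN3a (0.45) and in DN3b against DN3a (0.42), and in DN3b against DN3a also with the replicate block (0.68) and both together (0.44), with 0.45 to 0.95 over single libraries left out. With upper quartile scaling the median over genes was -0.10, -0.26 and -0.17 in DCKO against DN3b, DCKO against DN3a and DN3b against DN3a. Per kilobase of the longest transcript, Tcf4 stood in place 3 and Id3 in place 4 in DCKO, Tcf12 in place 1 and Tcf3 in place 2 in DN3b, and Tcf4 in place 3 and Id2 in place 4 in DN3a. The sign changed under at least 1 alternative in 6 of 18 member results and 43 of 198 list results. None of these results passed the threshold with the settings reported. With the changed sign, 2 passed: Gata3 in DCKO against DN3a (0.43 without DCKO libraries 1 and 2) and Stub1 in DCKO against DN3b (0.27 with GC correction). The causes were not tested.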
